A study of Homo sapiens with 6 samples.

Results

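Integrins are transmembrane receptors built of an alpha and a beta subunit that bind proteins of the extracellular matrix or of neighbouring cells. Inside the cell, talins and kindlins bind the beta subunit tails, and adaptors and kinases such as vinculin, paxillin, zyxin, the ILK-PINCH-parvin complex and focal adhesion kinase link the receptors to actin in focal adhesions. In glioma cells integrins are known for their part in adhesion and in migration through the matrix. The genes described here are 44 of the 28395 genes in the count table: 16 integrin alpha subunits and 8 integrin beta subunits, chosen by symbol, and 20 focal adhesion proteins, chosen by name. The rule uses symbols, not measured values, but the genes were chosen with earlier results of these data known.

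The libraries were bulk RNA-sequencing of U251MG, an established human glioblastoma cell line, in 2 groups of 3: WT cells, and NUAK2-CR cells, in which the kinase gene NUAK2 was targeted with CRISPR-Cas9 delivered by lentiviral vectors carrying GFP and mCherry. NUAK2-CR clones were grown from sorted double-positive cells. The sample labels name no clone, and the legend of a gene set table of the study names a clone, CR-3, so the 3 NUAK2-CR libraries may come from 1 clone. The study says in general terms that its data come from independent experiments, without saying how the libraries of a group were made. The p-values measure the spread between these libraries, part of which may be technical.

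Library totals ran from 29648445 to 55574081 counts, the largest in WT replicate 1. NUAK2 itself had 1457 to 1926 normalized counts in WT and 799 to 961 in NUAK2-CR, a difference of -0.93 on the log2 scale (edgeR, adjusted p = 1.8e-05). The 100 tested genes around NUAK2 had a median difference of -0.44. Relative to that shift and to the median of all genes, NUAK2 stood at -0.50. The part of the regional shift was not tested. The study reported the deletion in its clones by immunoblot and qPCR. Normalized counts are scaled to a common library size. All 8 markers of astrocytic glioma were measured, with GFAP at 81980 to 91559 normalized counts in WT and 13682 to 15701 in NUAK2-CR. Of these 8, 6 were lower and 1 higher in NUAK2-CR (adjusted p under 0.05), against 28.2% and 26.3% of all genes tested. The summed level of the 8 was 335151 to 370980 in WT and 150478 to 157962 in NUAK2-CR. Among the WT libraries, replicate 1 was the lowest in 15 of the 19 tested integrin genes (78.9%, against 37.7% of all genes tested) and the highest in 13 of the 20 focal adhesion genes (65%, against 38.2%). Each fold change below was also computed without it. In bulk RNA, fewer cells with a transcript and less of it per cell cannot be told apart.

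Expression was compared between NUAK2-CR and WT with edgeR's quasi-likelihood test, adjusted over the 14873 genes that passed a filter on low counts. The log2 fold change of NUAK2-CR against WT is written log2FC, also for a bare value in parentheses, with its standard error as SE and with normalized counts given for replicates 1 to 3 of WT and then of NUAK2-CR. A gene is called where its adjusted p is under 0.05. A large change has, in addition, an absolute log2FC over 1, and a DEG one over 2, the study's threshold. Of the 44 genes, 39 passed the filter: 19 of 24 integrin genes and all 20 focal adhesion genes. The integrin genes held 10 called higher and 4 called lower in NUAK2-CR, with 5 not called. Among the focal adhesion genes 14 were called higher and 2 lower, with 4 not called. Over all genes tested, 26.3% were called higher and 28.2% lower, 54.5% in either direction. The median log2FC was 0.47 for the integrin genes, 0.38 for the focal adhesion genes and -0.01 for all genes tested. A large increase was seen in 8 of the 39 (6.91% of all genes) and a large decrease in 2 (6.96% of all genes), while 2, LIMS2 and PARVB, were DEGs (4.72% of all genes). WT and NUAK2-CR libraries did not overlap for 29 of the 39, against 61.4% of all genes tested. The integrin genes called lower were 2 in number without WT replicate 2 or NUAK2-CR replicate 3, and 1 focal adhesion gene was called lower without NUAK2-CR replicate 3. Without WT replicate 1 the integrin genes still held 10 higher, with 5 lower, and their median was 0.34.

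**Figure D1:**
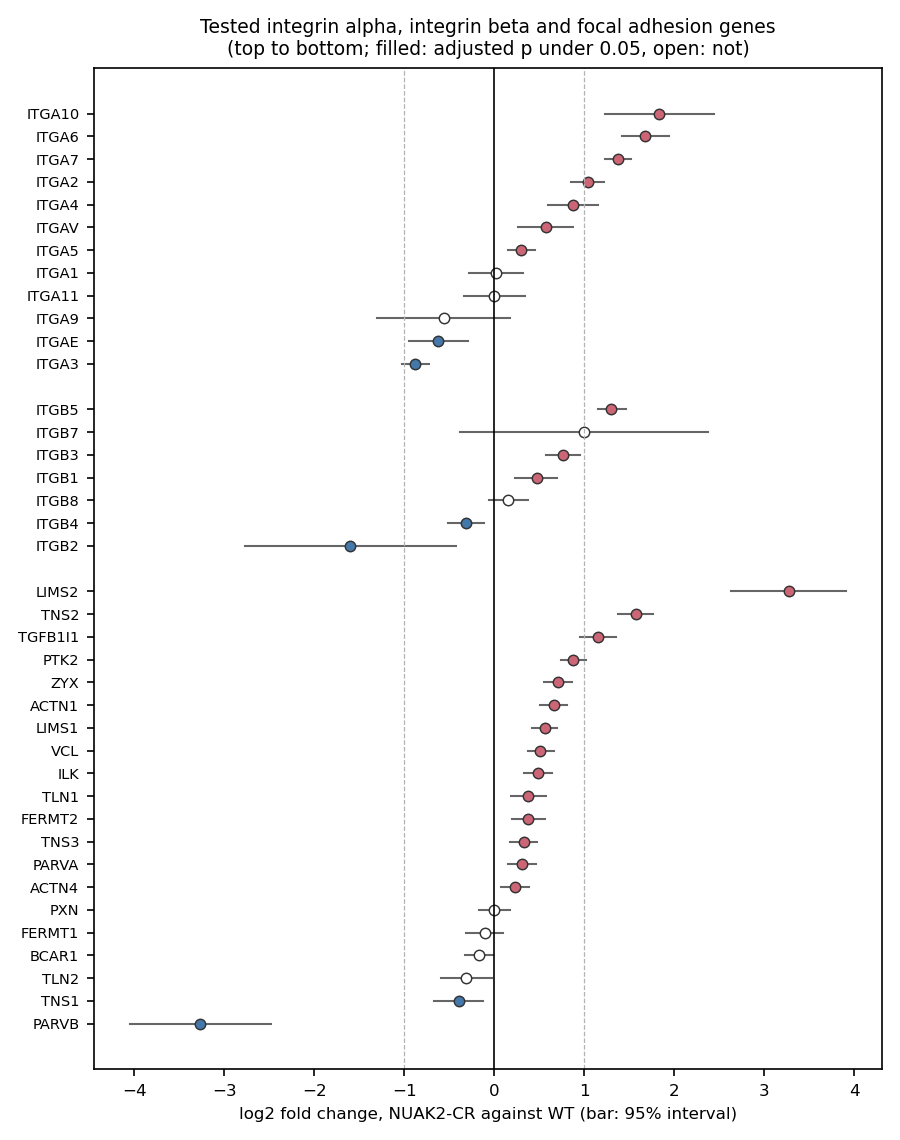
The horizontal axis gives the log2FC of NUAK2-CR against WT for the 39 tested genes, with 95% intervals as bars, and integrin alpha, integrin beta and focal adhesion genes run from top to bottom. Filled points have an adjusted p under 0.05; most lie to the right of 0, ITGA3 lies at -0.88, and LIMS2 and PARVB lie at 3.27 and -3.27.

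The integrin alpha subunits that pair with ITGB1 to bind laminin went in different directions. ITGA3 (chromosome 17, 50056110 to 50090481 on GRCh38) had the highest level of the alpha subunits per kb of transcript. It had 81157, 88401 and 91894 normalized counts in WT against 47559, 48849 and 45521. Every NUAK2-CR library was thus below every WT library, and the log2FC was -0.88 (SE = 0.07, adjusted p = 4.79e-07). ITGA6 (chromosome 2, 172427336 to 172506459), a laminin receptor subunit that pairs with ITGB1 or ITGB4, went the other way. It had 2349, 3430 and 3240 normalized counts in WT against 10436, 9240 and 9180. The groups lay far apart, with a log2FC of 1.68 (SE = 0.12, adjusted p = 2.23e-07). Without WT replicate 1, its lowest library, the value was 1.53. ITGA7 (chromosome 12, 55684568 to 55716400), the laminin receptor subunit best known from muscle, rose from 2481, 2341 and 2507 to 6571, 6387 and 6091 normalized counts. Its libraries were tight within each group, and its log2FC of 1.38 (SE = 0.07, adjusted p = 7e-09) moved only between 1.35 and 1.41 when each library was left out in turn. The ratio of ITGA3 to ITGA6, both per kb, fell from 41.1, 30.7 and 33.7 in WT to 5.42, 6.29 and 5.90 in NUAK2-CR.

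ITGB4 (chromosome 17, 75721459 to 75757818), the beta subunit of hemidesmosomes and partner of ITGA6, had 13872, 17763 and 16948 normalized counts in WT against 13996, 12902 and 12270. WT replicate 1 lay within the NUAK2-CR values, so the groups overlapped. Its log2FC was -0.31 (SE = 0.09, adjusted p = 0.0128), and the call was lost without WT replicate 2 (-0.24, adjusted p = 0.0521) and without NUAK2-CR replicate 3 (-0.27, adjusted p = 0.0662). ITGA3, ITGB4, ITGAE and ITGB3 all lie on chromosome 17. The tested genes around ITGA3 and ITGB4, 50 on each side, had median log2FC values of -0.41 and -0.45 in the same comparison. Relative to that shift and to the median of all genes, ITGA3 stood at -0.48 and ITGB4 at 0.13. The part of the regional shift in these results was not tested.

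Among the collagen-binding alpha subunits, ITGA2 and ITGA10 rose and ITGA1 and ITGA11 were not called. ITGA2 (chromosome 5, 52989352 to 53094779) had 2164, 2511 and 2293 normalized counts in WT against 5272, 4334 and 4675. With no overlap, its log2FC was 1.04 (SE = 0.09, adjusted p = 7.99e-07), and it was 0.99 without WT replicate 1 and 0.97 without NUAK2-CR replicate 1, both under the limit of a large change. ITGA10 (chromosome 1, 145891208 to 145910050) was scarce, with 31.9, 28.0 and 39.8 normalized counts in WT against 86.3, 145 and 123. All of its NUAK2-CR values were above all WT values, with a log2FC of 1.83 (SE = 0.28, adjusted p = 0.000124), in a region whose median was -0.50. ITGA1 lies close to ITGA2 on chromosome 5. It had 318, 428 and 385 normalized counts in WT against 410, 345 and 392, with mixed groups and a value of 0.02 (95% interval -0.28 to 0.32). ITGA11 had 296, 434 and 338 against 387, 314 and 364, also mixed, with a value of 0.00 (95% interval -0.34 to 0.34). The log2 ratio of ITGA1 to ITGA2 per kb was -3.08 ± 0.12 (SD, n = 3) for WT and -4.09 ± 0.06 (SD, n = 3) for NUAK2-CR. Of the 18545 exon bases of ITGA1, 499 overlap PELO on the same strand, a gene that was lower (-1.14), so the ITGA1 counts carry some uncertainty.

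The alpha subunits ITGAV and ITGA5, which bind proteins with an RGD sequence, were higher in NUAK2-CR, as was ITGA4, while ITGA9 was not called. ITGAV (chromosome 2, 186590056 to 186680901), the alpha subunit shared by ITGB3, ITGB5, ITGB6 and ITGB8, had 8646, 14108 and 12784 normalized counts in WT against 17975, 15858 and 18792. The WT spread was wide, with replicate 1 the lowest, and the log2FC of 0.57 (SE = 0.14, adjusted p = 0.00471) was 0.39 without that library. ITGA5, the fibronectin receptor subunit, had 7581, 7384 and 7957 in WT against 8996, 9904 and 9326. All 3 NUAK2-CR libraries were above WT, and the rise was small (0.30, SE = 0.07, adjusted p = 0.00225). ITGA4, which binds fibronectin and VCAM1, had 1748, 2763 and 2324 normalized counts in WT against 4211, 4045 and 4239. Its groups did not overlap, with a log2FC of 0.87 (SE = 0.13, adjusted p = 8.93e-05) that was 0.72 without WT replicate 1. ITGA9, close in sequence to ITGA4, was scarce, with 43.8, 66.6 and 111 normalized counts in WT against 45.7, 45.8 and 56.0, and overlapping groups. It was not called with all libraries, at -0.56 (95% interval -1.30 to 0.18, adjusted p = 0.182). Without WT replicate 1 it was called lower, at -0.83 (adjusted p = 0.0322).

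Of the beta subunits, ITGB5 changed most among those with an appreciable level. ITGB5 (chromosome 3, 124761948 to 124901418), which pairs with ITGAV to bind vitronectin, rose from 5721, 5966 and 6360 to 14211, 15370 and 14983 normalized counts. Both groups were tight and far apart, with a log2FC of 1.30 (SE = 0.07, adjusted p = 1.56e-08), and the median of its genomic neighbours was -0.02. ITGB3, the other ITGAV partner of this type, had 646, 694 and 749 normalized counts in WT against 1248, 1152 and 1136. Its log2FC was 0.76 (SE = 0.09, adjusted p = 1.41e-05), although the genes around it on chromosome 17 had a median of -0.38. ITGB8, which with ITGAV binds latent TGF-beta, had 4370, 5700 and 5398 in WT against 6165, 5179 and 5834. Its groups overlapped, and the log2FC was 0.15 (95% interval -0.06 to 0.37, adjusted p = 0.218). The ratio of ITGB8 to ITGB5 per kb went from 0.378, 0.473 and 0.420 in WT to 0.215, 0.167 and 0.193 in NUAK2-CR. ITGB1, the most abundant beta subunit and the partner of most of the alpha subunits, had 15379, 21830 and 20482 normalized counts in WT against 26776, 26374 and 26547. WT replicate 1 was again the lowest library, and the log2FC of 0.47 (SE = 0.11, adjusted p = 0.00266) was 0.34 without it.

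Taken per kb, ITGA3 supplied 77.6%, 75.1% and 76.2% of the summed alpha subunit level in WT and 50.3%, 52.2% and 49.8% in NUAK2-CR. The shares of ITGAV, ITGA5, ITGA6, ITGA7, ITGA4 and ITGA2 were all higher in every NUAK2-CR library than in every WT library, and ITGA6 went from 2.20% ± 0.286 (SD, n = 3) to 8.67% ± 0.530 (SD, n = 3). The summed alpha level per kb was 23383 ± 1737 (SD, n = 3) for WT against 19059 ± 323 (SD, n = 3) for NUAK2-CR, and the summed beta level 9963 ± 1399 (SD, n = 3) and 13521 ± 119 (SD, n = 3). ITGB1 held 49.2% to 53.3% of the beta level in WT and 52.3% to 53.0% in NUAK2-CR, with overlapping groups. ITGB5 went from 13.7% ± 1.58 (SD, n = 3) to 24.8% ± 1.15 (SD, n = 3) and ITGB4 from 27.6% ± 0.453 (SD, n = 3) to 16.4% ± 0.949 (SD, n = 3). Shares sum to a fixed total, so a fall of ITGA3 raises the shares of the others, and transcript levels per kb say nothing of the receptors at the cell surface.

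**Figure D2:**
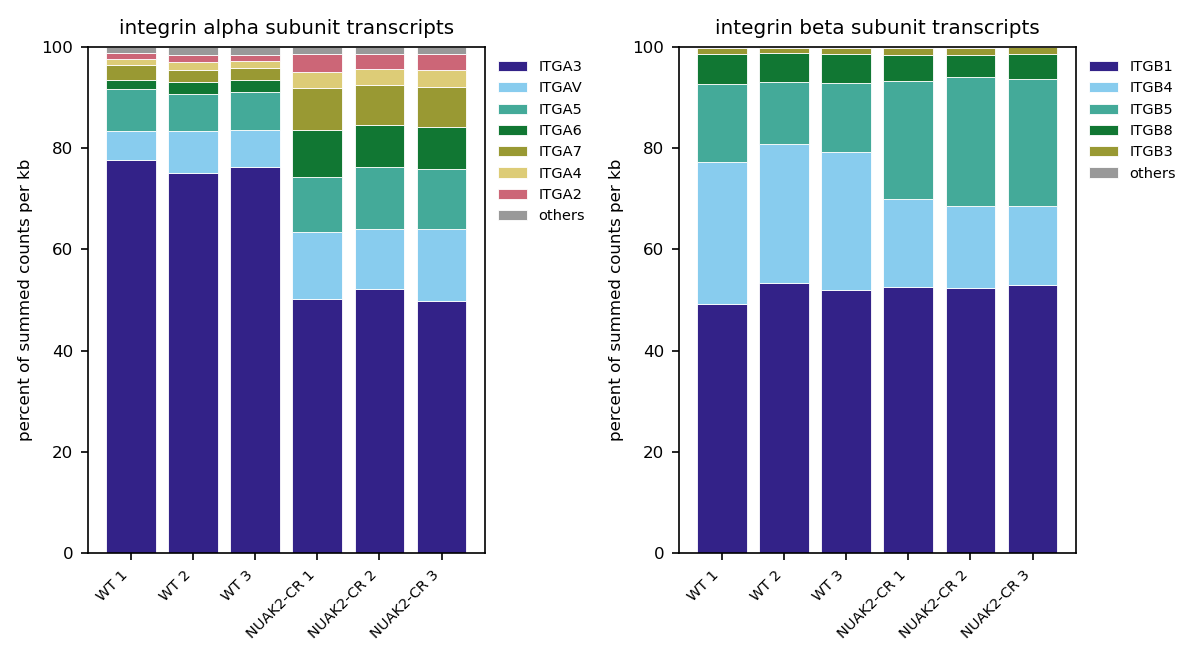
Each bar is a library, and its segments give the percent of the summed normalized counts per kb of the integrin alpha (left) or beta (right) subunits. The ITGA3 segment is 75.1% to 77.6% in WT and 49.8% to 52.2% in NUAK2-CR, and the ITGB1 segment stays near the same height in all libraries.

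Most integrins of leukocytes were at or near the limit of detection. ITGAM had 0 counts in all WT libraries and 0, 2 and 3 in NUAK2-CR, and ITGA8, an alpha subunit known from kidney and muscle, had a single count in WT replicate 2 and 0 elsewhere. A count of 0 at this depth allows up to 3 counts, as far as counting error goes. ITGAL had 0 to 8 counts and ITGAX 0 to 15 counts per library. These 4 genes and ITGB6, the epithelial partner of ITGAV with 6 to 13 counts, did not pass the filter. ITGB2 (chromosome 21, 44885953 to 44928815), the shared beta subunit of leukocyte integrins, had 25.2, 56.0 and 61.3 normalized counts in WT against 3.81, 26.5 and 15.4. WT replicate 1 fell below NUAK2-CR replicate 2, so the groups overlapped, and its log2FC was -1.60 (SE = 0.54, adjusted p = 0.0237). This call was lost without WT replicate 2 (-1.46, adjusted p = 0.0701), WT replicate 3 (-1.38, adjusted p = 0.0859), NUAK2-CR replicate 1 (-1.15, adjusted p = 0.0746) or NUAK2-CR replicate 3 (-1.60, adjusted p = 0.0613). ITGB7 had 1.93 to 11.8 normalized counts in WT and 9.88 to 14.0 in NUAK2-CR, with no call (adjusted p = 0.203), and its exons overlap those of the more abundant ZNF740. ITGAE, its partner in intraepithelial lymphocytes, had 691, 1037 and 1091 normalized counts in WT against 594, 674 and 560. Its log2FC was -0.62 (SE = 0.15, adjusted p = 0.00413), with a regional median of -0.31, and part of its exons overlap HASPIN on the opposite strand, which was also lower (-0.67).

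Of 7 leukocyte markers, PTPRC and CD3E had at most 3 counts in any library, and the summed level of the 7, mostly CD68, was 864 to 973 normalized counts in WT and 248 to 293 in NUAK2-CR. CSF1R was also present, with 202 to 234 normalized counts in WT and 38.1 to 42.8 in NUAK2-CR. CD68 (-1.59) and CSF1R (-2.46) were the 2 leukocyte markers tested, and both were called lower. Beside this and the marker counts below, 26.3% of all genes tested were called higher and 28.2% lower. For the other cell types the summed marker levels were 77.2 to 139 in WT and 62.6 to 126 in NUAK2-CR for platelets (GP9 and PF4 at 0 counts in every library), and 5298 to 6094 and 6622 to 7189 for epithelium, which came almost entirely from KRT8 and KRT18. KRT8 was called lower (-0.56) and KRT18 higher (0.64), so the epithelial sum joins opposite changes. The sums were 450 to 583 and 1423 to 1708 for neurons, where 3 of 4 tested markers were called higher. For oligodendrocytes they were 117 to 161 and 38.4 to 51.9, and 1 of 2 tested markers was called lower. For endothelium the sum was 248 to 336 in WT and 186 to 218 in NUAK2-CR, mostly KDR, which was lower. Of the 5 endothelial markers 2 were called higher, PECAM1 (mean 0.443 to 15.8 normalized counts) and VWF (17.5 to 58.5). For fibroblasts and smooth muscle the sum was 6324 to 8468 in WT and 6692 to 7290 in NUAK2-CR, and it hides opposite changes. COL1A1, the most abundant, was lower, and the other 4 tested markers were called higher: ACTA2 (mean 93.0 to 2138 normalized counts), DCN (2.71 to 201), LUM (6.24 to 33.1) and PDGFRB (861 to 1763). The part of other cell states in the integrin results was not tested.

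Among the focal adhesion genes, the most abundant ones rose modestly. ACTN4 and ACTN1, which cross-link actin, VCL, which couples talin to actin, ZYX, which marks mature adhesions and stress fibres, and ILK, the scaffold kinase of the PINCH and parvin complex, had the highest levels per kb and were all called higher. ACTN1 had 22845, 20323 and 20531 normalized counts in WT against 33774, 33728 and 33145. Its NUAK2-CR values were nearly equal and all above WT, with a log2FC of 0.66 (SE = 0.07, adjusted p = 5.35e-06). ACTN4 had 49218, 43907 and 45358 in WT against 56457, 54787 and 51646, without overlap. Its log2FC was 0.23 (SE = 0.07, adjusted p = 0.0128), and the call was lost without WT replicate 2 (0.20, adjusted p = 0.0515) and without NUAK2-CR replicate 2 (0.23, adjusted p = 0.0501). The region of ACTN4 had a median of 0.23, equal to its own value. VCL had 17091, 19024 and 18481 normalized counts in WT against 26253, 25427 and 26084, a log2FC of 0.51 (SE = 0.07, adjusted p = 3.72e-05). ZYX had 7794, 6758 and 6970 in WT against 12041, 11492 and 11595, a log2FC of 0.71 (SE = 0.07, adjusted p = 4.29e-06). Neither VCL nor ZYX overlapped between groups. ILK had 4375, 4431 and 4886 in WT against 6092, 6717 and 6362, again apart (0.49, SE = 0.07, adjusted p = 9.69e-05). The region of ILK had a median of 0.29, and relative to that shift ILK stood at 0.18. Of its 3484 exon bases over all GENCODE transcripts, 2374 lie over TAF10 on the opposite strand. The counting was run with default parameters, which ignore strand and leave out reads shared between genes. Reads of ILK in the bases shared with TAF10 (0.13) may thus be missing from its counts. The same holds for VCL over the 1109 bases shared with AP3M1 (-0.09).

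PTK2 (chromosome 8, 140657900 to 141002079), the gene of focal adhesion kinase, had 3058, 3058 and 2900 normalized counts in WT against 5552, 5482 and 5575. The libraries of each group were nearly alike, and its log2FC of 0.88 (SE = 0.06, adjusted p = 2.08e-07) was the largest increase among the focal adhesion genes after LIMS2, TNS2 and TGFB1I1. The 100 tested genes around it had a median of 0.68, and relative to that shift PTK2 stood at 0.19. The part of the regional shift was not tested. PXN and BCAR1, adaptors that work with this kinase, were not called, while NEDD9, a relative of BCAR1 from the list of other adhesion proteins, was lower (-1.19, SE = 0.08, adjusted p = 6.8e-08). PXN (paxillin) had 14631, 12426 and 12587 in WT against 13493, 13561 and 12632, with overlapping groups and a value of 0.00 (95% interval -0.17 to 0.17). BCAR1 (p130Cas) had 7078, 6161 and 6294 against 5774, 5937 and 5696. All its NUAK2-CR values were below WT, yet it was not called (-0.17, 95% interval -0.32 to -0.01, adjusted p = 0.0653) except without WT replicate 2 (-0.21, adjusted p = 0.0395). PXN overlaps PXN-AS1 on the opposite strand, which had far fewer reads.

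TGFB1I1 (chromosome 16, 31472152 to 31477960), which encodes the paxillin relative Hic-5, rose from 1358, 1050 and 1210 to 2602, 2734 and 2717 normalized counts. The groups were far apart, with a log2FC of 1.15 (SE = 0.09, adjusted p = 4.92e-07). PXN stood at 3.73, 4.10 and 3.60 times TGFB1I1 per kb in the WT libraries and at 1.79, 1.72 and 1.61 times in the NUAK2-CR libraries.

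Within several families of related genes the members changed by different amounts or in different directions. LIMS2 (chromosome 2, 127638426 to 127681786) encodes PINCH2, and LIMS1 encodes PINCH1, both adaptors of ILK. LIMS2 had 16.6, 14.5 and 8.60 normalized counts in WT against 127, 129 and 139, a log2FC of 3.27 (SE = 0.29, adjusted p = 1.43e-06). LIMS1 had 4609, 4595 and 4636 against 6581, 6791 and 7035 (0.56, SE = 0.06, adjusted p = 1.05e-05). It was far more abundant in both groups and stood at 152, 174 and 296 times LIMS2 per kb in WT and at 28.4, 28.9 and 27.7 times in NUAK2-CR. LIMS1 has near-identical copies, LIMS3 and LIMS4, so reads that match a copy equally well may be missing from its counts. Of the parvins, which bind ILK and actin, the scarcer gene was lower instead. PARVB (chromosome 22, 43999211 to 44172939) had 88.3, 69.5 and 84.9 normalized counts in WT against 5.08, 12.1 and 7.69, a log2FC of -3.27 (SE = 0.36, adjusted p = 8.94e-06). PARVA had 4044, 3611 and 3560 against 4727, 4600 and 4545 (0.31, SE = 0.07, adjusted p = 0.0027), and its level per kb was 26.2 to 32.5 times that of PARVB in WT and 239 to 582 times in NUAK2-CR. The region of PARVA had a median of 0.22, and relative to that shift PARVA stood at 0.07. LIMS2 and PARVB thus had the largest changes of the 39 genes and the lowest levels per kb of the 20 focal adhesion genes.

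The tensins link integrin tails to actin. TNS2 (chromosome 12, 53046991 to 53064379) had 1029, 1082 and 926 normalized counts in WT against 3331, 2838 and 2843, a log2FC of 1.57 (SE = 0.09, adjusted p = 2.73e-08). TNS3, the most abundant tensin, had 16991, 16079 and 15080 against 20474, 20389 and 19566 (0.33, SE = 0.07, adjusted p = 0.00133). TNS1 went the other way, with 519, 571 and 511 against 427, 457 and 337 and no overlap (-0.39, SE = 0.13, adjusted p = 0.0199). It lost the call without WT replicate 2 (-0.34, adjusted p = 0.0683) and without NUAK2-CR replicate 3 (-0.27, adjusted p = 0.0954). The ratio of TNS2 to TNS3 per kb was 0.0947, 0.105 and 0.0960 in WT against 0.255, 0.218 and 0.227. Among the proteins that activate integrins, TLN1 (talin 1) rose from 21250, 18067 and 17089 to 24822, 25986 and 22712 (0.38, SE = 0.09, adjusted p = 0.00272). FERMT2 (kindlin 2) rose from 2300, 2867 and 2702 to 3408, 3376 and 3431 (0.38, SE = 0.08, adjusted p = 0.00191). Neither overlapped between groups. The tested genes around TLN1 had a median of 0.30, and relative to that shift TLN1 stood at 0.08. The part of the regional shift was not tested. TLN2 had 5784, 3882 and 4179 normalized counts in WT against 3766, 4070 and 3366. The groups overlapped, and its log2FC of -0.31 (95% interval -0.59 to -0.03, adjusted p = 0.0606) was not called. It was called without WT replicate 2 (-0.42, adjusted p = 0.0141), without WT replicate 3 (-0.38, adjusted p = 0.0477) and with DESeq2 (-0.30, adjusted p = 0.0345), while without WT replicate 1 the value was -0.10. FERMT1 (kindlin 1) had 938, 767 and 889 against 766, 830 and 819, with overlap and no call (-0.10, 95% interval -0.31 to 0.10).

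**Figure D3:**
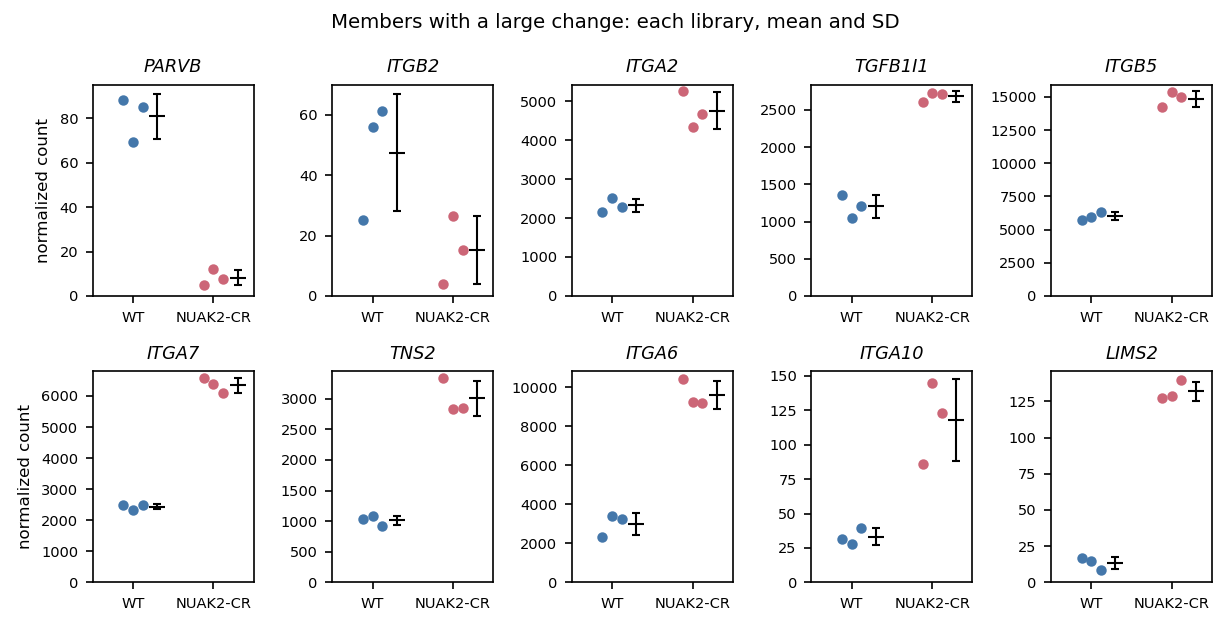
Each panel gives the normalized counts of the 3 WT and 3 NUAK2-CR libraries of a gene with a large change, on a linear axis from 0, with the mean and SD beside the points. The groups overlap only for ITGB2, and PARVB and LIMS2 stay under 140 normalized counts in all libraries.

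In all, 15 pairs of related genes were compared by their ratio per kb in each library, and the WT and NUAK2-CR ratios overlapped only for ITGA5 to ITGAV. Taken singly, 61.4% of all genes tested did not overlap between the groups. Ratios of other gene pairs were not computed, so whether this separation is particular to these pairs was not tested. The largest differences of the log2 ratio, NUAK2-CR minus WT, were 3.68 for PARVA to PARVB, -2.81 for LIMS1 to LIMS2 and -2.57 for ITGA3 to ITGA6. An exact two-sided permutation test of 3 against 3 libraries cannot give a p under 0.1, and 14 of the pairs reached that value.

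**Figure D4:**
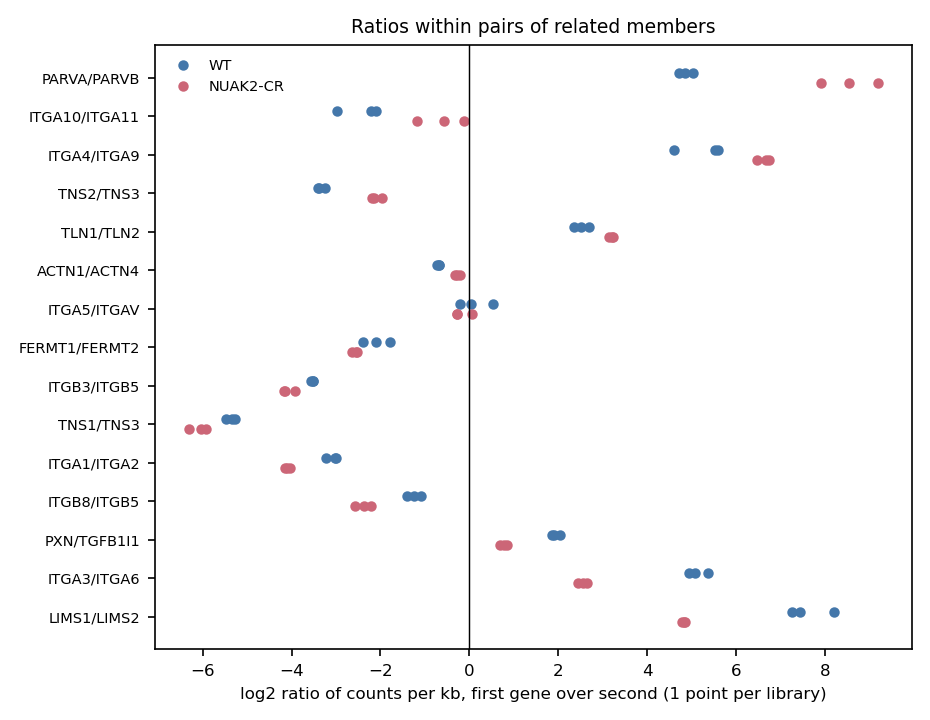
Each point is a library, and the horizontal axis gives the log2 ratio of normalized counts per kb of the first gene of a pair over the second. WT and NUAK2-CR points are apart in every pair but ITGA5/ITGAV, and the gap is widest for PARVA/PARVB (3.68).

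**Figure D5:**
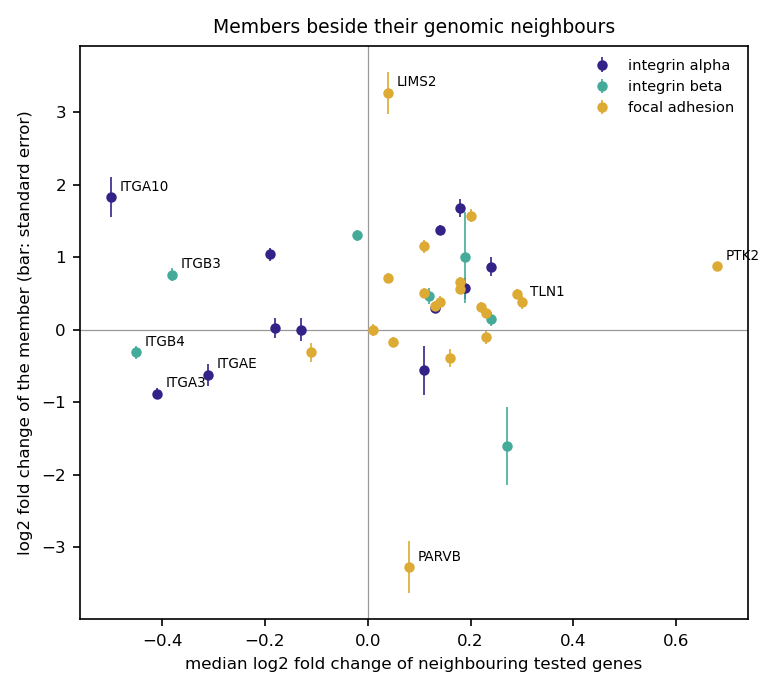
Each point is a tested gene, with the median log2FC of its tested genomic neighbours (up to 50 on each side) on the horizontal axis and its own log2FC with its SE on the vertical axis. PTK2 lies at a regional median of 0.68, and ITGA10, ITGB4, ITGA3, ITGB3 and ITGAE lie at -0.50 to -0.31, while LIMS2 and PARVB lie near 0.

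Promoter sequence was available from RefSeq for 33 of the 44 genes, as 64 windows that run from 250 bases before to 50 bases after a transcription start on GRCh38.p14. Since YAP and TAZ act through TEAD factors, and SRF controls many genes of the actin cytoskeleton, the windows were searched for GGAATG, the core letters of a TEAD site, on both strands, and for the CArG box bound by SRF. GGAATG was present for 7 of the 33 genes (21.2%, against 16.7% of the 27305 genes in the table): ACTN1, ITGA5, ITGA10, ITGB1, PXN, TNS1 and VCL. Of these 7, 5 were called higher, TNS1 was called lower and PXN was not called, beside 24 called higher among all 39 tested genes (61.5%). Genes can have more than 1 window, and by window GGAATG was present in 8 of the 64, against 14% of all 35116 windows. The CArG box was present for ACTN1, ITGB6 and TGFB1I1, or 9.09% of the 33 genes, against 1.6% of all genes. By window it was present in 3 of the 64, against 1.29% of all windows. Stretches before the start are shown for ACTN1, which holds both, and for ITGA10 and TGFB1I1, which had large increases. For ACTN1 and ITGA10 these are the 162 and 189 bases that hold no GENCODE exon. For TGFB1I1 the match lies in an annotated exon, and 30 bases are shown. The ACTN1 and TGFB1I1 starts lie inside their genes. Capitals mark the CArG box in ACTN1 and TGFB1I1 and the TEAD letters, read on the other strand as CATTCC, in ACTN1 and ITGA10.
ACTN1, chr14:68977655-68977816, minus strand: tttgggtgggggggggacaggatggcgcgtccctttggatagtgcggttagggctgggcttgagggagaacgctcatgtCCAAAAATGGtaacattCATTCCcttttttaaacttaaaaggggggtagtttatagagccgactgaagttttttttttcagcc
ITGA10, chr1:145910112-145910300, minus strand: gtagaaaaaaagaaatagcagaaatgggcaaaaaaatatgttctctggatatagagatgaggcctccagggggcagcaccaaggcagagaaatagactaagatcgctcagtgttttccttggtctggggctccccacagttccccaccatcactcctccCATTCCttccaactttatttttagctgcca
TGFB1I1, chr16:31473144-31473173, plus strand: tggaggggagCCAAATTTGGcttgggtgaa
The CArG box starts 171 bases before the ACTN1 start and 51 bases before the TGFB1I1 start. These are matches of letters in short windows, and none was tested as a binding site.

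Genes that work with these receptors were examined with 3 further lists, for which bare values are log2FC and the shares called over all genes are again 26.3% higher and 28.2% lower. These lists, too, were chosen with earlier results of these data known. Of 46 integrin ligands, 38 were tested, with 24 called higher (63.2%), 9 lower (23.7%) and a median log2FC of 0.51. The largest increases among abundant ligands were those of POSTN (periostin, a ligand of ITGAV receptors) at 5.31, FN1 (fibronectin) at 3.23 and NPNT (nephronectin, a ligand of ITGA8) at 3.07. SPP1 (osteopontin) was lower at -1.79, TGFBI at -1.52 and COL1A1 at -1.15. NPNT had 421, 543 and 606 normalized counts in WT against 4467, 4135 and 4500, with the groups far apart (SE = 0.12, adjusted p = 8.96e-10). Of 14 surface partners of integrins, 13 were tested, with 11 called higher (84.6%), 1 lower (7.69%) and a median of 0.37. SLC7A5 rose by 1.25, SDC4 (syndecan 4, a co-receptor in focal adhesions) by 1.16 and the tetraspanin CD63 by 1.14. CD44, the hyaluronan receptor, was the member called lower, at -1.55. Of 67 other adhesion proteins, 58 were tested, and they were split, with 24 called higher (41.4%), 21 lower (36.2%) and a median of 0.08. PLEC (plectin, a partner of ITGB4) rose by 1.35 in a region with a median of 0.76, DLC1 by 1.04 and KANK1 by 1.03. FLNC (filamin C) was the lowest, with 285, 168 and 272 normalized counts in WT against 12.7, 8.44 and 16.5, a log2FC of -4.25 (SE = 0.31, adjusted p = 2.42e-07). KANK4 was lower at -2.33 and SORBS2 at -1.30.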

How the data were processed

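Bulk RNA-sequencing covered 3 WT and 3 NUAK2-CR libraries of U251MG cells, prepared with a stranded Illumina mRNA kit. The authors deposited raw counts per NCBI gene identifier, which featureCounts made with default parameters from reads trimmed by Trimmomatic and placed on hg38 by HISAT2. These parameters ignore strand and leave out reads shared between genes. The annotation is not given in the sources used here. Of 28395 identifiers, 27745 matched a RefSeq symbol.

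Counts were tested in R 4.3.3 with edgeR 4.0.16 (filterByExpr, TMM, glmQLFit, glmQLFTest, edgeR's default prior count, no covariate) and Benjamini-Hochberg adjustment over 14873 genes. Intervals are at 95%. For normalized values, each count was divided by its effective library size and multiplied by the mean of these sizes. Levels per kb divide these by the length of the canonical transcript in GENCODE. A regional median covers up to 50 tested genes on each side. The pipeline was run on simulated data with the same relative spread for all genes. That run checked the code and not the error rates in these data. Totals ranged from 29648445 to 55574081 counts, and precision at low counts is limited accordingly.

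Alternatives were DESeq2 1.42.0, RLE and library-size scaling, other count filters, a prior count of 2, a replicate block and each library left out. The genes and lists were chosen with earlier results of these data known. Genes are described singly where they had a large change, were in the top 5 by level per kb in their class, or belonged to a listed pair, and BCAR1, ITGAE, ITGB7, PTK2, NEDD9 and the named marker genes were added after their values were seen. From each further list, the text names up to 3 genes in each direction with the largest changes, given an absolute log2 fold change over 1 and, in the group where it was higher, a mean normalized count of 100 or more. Marker lists covered astrocytic glioma, leukocytes, platelets, endothelium, epithelium, neurons, oligodendrocytes, and fibroblasts and smooth muscle. Planned searches of protein sequences were not run. Tables and figures were made in Python 3.11.15 (pandas 2.3.3, matplotlib 3.10.9).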

Additional observations from a re-analysis of the deposited data

How the results depend on the processing

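RLE scaling and library-size scaling changed no call among the 39 tested genes, and no called gene changed direction under any alternative. A prior count of 2 alters the fold changes and not the test, so it could change no call. Requiring at least 10 counts in every library removed ITGB2, ITGB7, LIMS2 and PARVB from the test, which left 1 focal adhesion gene called lower, 0 genes with a large decrease and 0 DEGs. Leaving out each library in turn gave 2 to 5 integrin genes called lower, 1 to 3 focal adhesion genes called lower and 1 to 2 genes with a large decrease (1 where ITGB2 lost its call, in 4 of the 6 cases). Over all genes, DEGs numbered 702 with the filter used and 339 with at least 10 counts in every library. The fold changes nearest to 0 changed sign with no call. ITGA11 was -0.01 with no filter beyond 1 count, -0.00 with at least 10 counts and -0.11 to 0.17 over the libraries left out, PXN was -0.01, -0.00 and -0.04 to 0.09, and ITGA1 was -0.08 to 0.12 over the libraries left out. TLN2 was also called lower with no filter beyond 1 count (-0.32, adjusted p = 0.00623).

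The labels do not say what replicates with the same number share. Their deviations from the group means correlated at 0.043, -0.035 and 0.048. Each library numbered 1 or 3 correlated best with its own number, while those numbered 2 did not. With the replicate block, TLN2 was called lower (-0.29, adjusted p = 0.0262), no call among the genes described here was lost, and the genes called among all tested went from 8107 to 8167. ITGB2, ITGA9, ITGA10, ITGB7, LIMS2 and PARVB, each with a mean under 100 normalized counts in WT, had the largest standard errors of the log2 fold change (0.28 to 0.63), so depth limits these most.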
